A study of Zea mays with 137 samples.

Results

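The genes described here are 150 unlinked (*trans*) genes of maize, taken as those with the largest difference in expression between double monosomies and double trisomies of the same chromosome arms, higher in the monosomies. They lie on chromosomes 2, 7, 8 and 10, of which no arm was varied. Each had a group mean of 5 to 300 mapped fragments per kilobase, scaled for library depth (FPKM) in all 9 groups of diploid controls. Of the 41448 genes with an identifier, 14725 lay on these chromosomes and 3741 of them (25.4%) met that range, and these 3741 are called the eligible genes. For each gene and combination, L was the log2 ratio of the aneuploid to the diploid group mean after 0.5 FPKM was added to both, minus the median of that ratio over the eligible genes. M was the mean of L over the double monosomies of 5L+6L, 4L+5L, 3L+4L, 6L+9S, 4L+6L and 3L+5L, and T was the mean of L over the double trisomies of the same 6 pairs of arms. The 150 eligible genes with the highest M minus T were taken, which was 4.01% of the eligible genes.

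In an aneuploid plant the genes on the varied arm are in *cis*, and genes elsewhere in the genome are in *trans*. An inverse effect is a change of a *trans* gene in the direction opposite to the change in dosage, so that it is expressed more when an arm is lost and less when an arm is gained. Such effects are known from maize and *Drosophila*, where regulators that act in dosage-sensitive complexes have been connected with them, and they stand beside direct effects, in which a *trans* gene follows the dosage. A gene with a high M minus T has the inverse pattern by construction only in the difference between the 2 kinds of plant. A level below the diploid one in trisomies raised a gene in the ranking but was not required.

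Leaf RNA of W22 plants grown for 45 d in the greenhouse was sequenced from 108 listed aneuploid plants of 33 combinations and from 29 listed diploid controls. The combinations were double monosomies (1 copy of each arm, 6 combinations, 21 plants), double trisomies (3 copies of each arm, 9 combinations, 34 plants), a trisomy with a tetrasomy (3 and 4 copies, 3 combinations of 1 plant each) and a trisomy with a monosomy (3 copies of 1 arm and 1 copy of the other, 15 combinations, 50 plants). Each of the 9 pairs of arms had its own controls, with 2 copies of both arms and 2 to 4 plants per pair. The arms were varied with translocations between these chromosomes and the supernumerary B chromosome, so that aneuploid plants also carried translocation chromosomes, and a translocation was also carried by the euploid controls of 6L+9S and 1L+3L and by a control of 5L+6L.

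The tables hold 1 mean per group, without values of single plants and without read counts. A value of 1 combination therefore has no replicate error, the depth of the libraries is unknown here, and spread is given over genes or over combinations. The combinations of a pair share the same controls. FPKM and L are relative measures, and neither shows a change in the total size of the transcriptome. The paper estimated a changed size in most combinations. Among the double monosomies it was lower in 3L+4L, 4L+5L and 6L+9S and higher in 4L+6L. The paper proposes that a smaller transcriptome can bring a relative rise in double monosomies back to no change or lower. For 1 plant listed as monosomy 1S+trisomy 9L the study's karyotype list names trisomy 1S+monosomy 9L, and the mean of the library group labelled monosomy 1S+trisomy 9L is read with that doubt. The study's list of tissues notes leaf with mid-rib for all plants of double monosomy 3L+5L and of trisomy 1S+monosomy 9L and for single plants of 4 other combinations, all of them a trisomy with a monosomy. As a check of the tissue, the gene of photosystem II reaction centre protein W (Zm00004b018833, on 3L), which is used in photosynthesis, had 115 to 1425 FPKM in the aneuploid groups and 601 to 1465 FPKM in the controls. In the 4 double monosomies with 2 copies of 3L its L was -0.33 for 4L+5L, -0.60 for 4L+6L, -0.62 for 5L+6L and -1.03 for 6L+9S. In the double trisomies of the same pairs it was -0.44 for 4L+5L, -0.73 for 4L+6L, -0.52 for 5L+6L and 0.03 for 6L+9S. Its level relative to the eligible genes was thus below the controls in both kinds of plant, apart from double trisomy 6L+9S, and the part of leaf composition in the values below was not tested. In bulk leaf, fewer cells of a type and less RNA per cell cannot be told apart.

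The files do not pair the gene identifiers with names, and the reference gene table at hand, of the maize line B73, held 0 of the 3741 identifiers. Genes are therefore given by identifier and by their position in the W22 assembly, without a name or a function. No sequence of a member is shown, since no W22 sequence was at hand.

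The values that chose the genes are given first, as a description. M had a median of 0.64 over the 150 genes (lowest 0.05, highest 3.33), against a median of -0.01 over the eligible genes, whose quartiles were -0.15 and 0.14. T had a median of -0.17 over the 150 genes (lowest -0.95, highest 0.36), against 0.00 over the eligible genes, whose quartiles were -0.08 and 0.07. The 2 sides of the selection were unequal, with a median M of 1.56-fold and a median T of 0.889-fold on this scale. By the quartiles above, M was also spread more widely than T over the eligible genes. A ranking by M minus T therefore leans on M, and the inequality is not a trait of the 150 genes alone. All 150 genes had an M above 0, 130 had a T below 0, and in 136 the size of M was larger than that of T. M was above 1.5-fold in 94 genes, T was below 1/1.5-fold in 6 genes, and both held for 3 genes. Shares of the eligible genes are not given for these counts, which the selection shaped. M minus T ended at 0.614 in the last gene inside the threshold, Zm00004b040306 (chromosome 10, 141897145 to 141902505, M 0.56, T -0.06). The first gene outside it, Zm00004b026666 (chromosome 8, 131045729 to 131049991), had 0.607, with an M of 0.91 and a T of 0.31, so a gene that was higher in both kinds of plant stood next to the list. The scatter of M and T shows that most of the 150 genes lie far out along M and close to 0 along T.

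**Figure D1:**
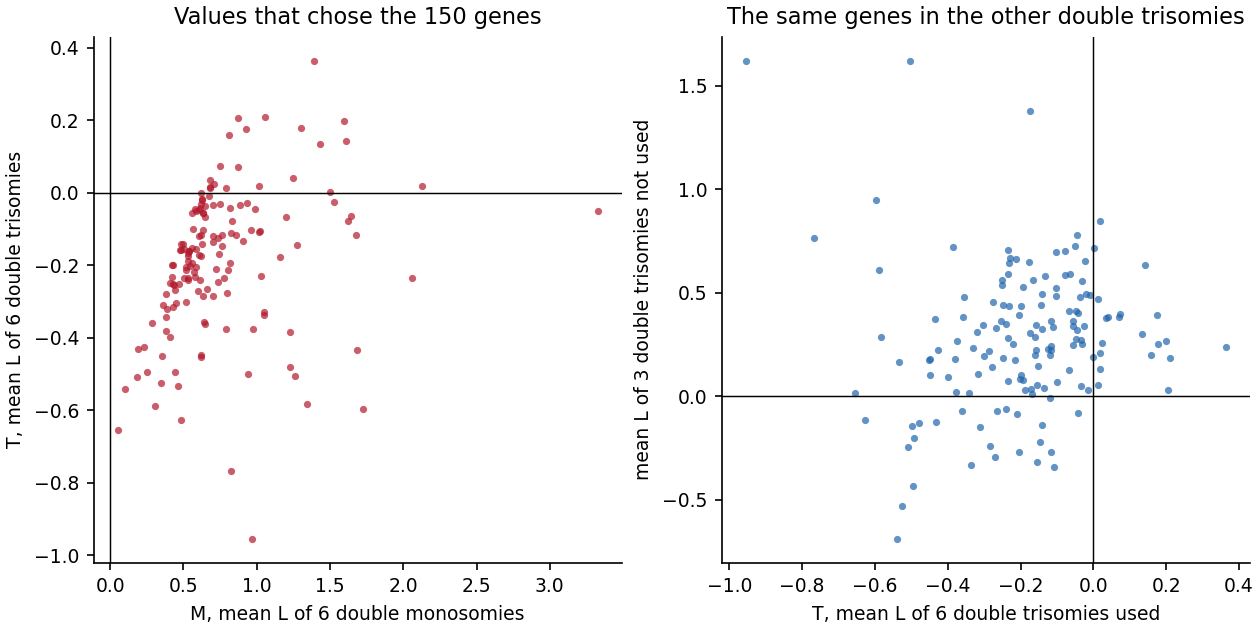
The left panel plots T (mean L of the 6 double trisomies used in the selection) against M (mean L of the 6 double monosomies), and the right panel plots the mean L of the 3 double trisomies that were not used against T, with 1 point per gene for the 150 genes and log2 units on all axes. On the left all points have an M above 0 and 130 of 150 a T below 0. On the right 125 of 150 points lie above 0.

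In the double monosomies the 150 genes had a median L above 0 in each of the 6 combinations, which the selection favoured. The median was 1.05 for 4L+5L, 0.92 for 3L+4L, 0.90 for 5L+6L, 0.77 for 3L+5L, 0.36 for 4L+6L and 0.16 for 6L+9S. In FPKM, the median of the 150 genes was 40.5 in double monosomy 4L+5L, against 18.3 in its controls. In double monosomy 6L+9S it was 24.8, against 17.7 in its controls, while the eligible genes had a median of 20.0 FPKM there, against 17.0 in the controls. The size of the difference from the pair's own controls thus varied, and 4 pairs had medians above 0.76 while 4L+6L and 6L+9S had the smallest. Relative to the mean of all 9 groups of controls, the median was 0.60 for 4L+6L, near the 0.67 of 3L+5L, and 0.25 for 6L+9S. More than 1.5-fold higher were 126 of the 150 genes for 4L+5L, beside 11.1% of all eligible genes, 116 for 3L+4L, beside 12.1%, and 104 for 5L+6L, beside 7.4%. The same held for 91 genes for 3L+5L, beside 6.74% of the eligible genes, 53 for 4L+6L, beside 6.9%, and 38 for 6L+9S, beside 7.11%. Since the selection used these values, nothing is read from the counts. The number of double monosomies in which a gene was high is likewise given as a description only. A level more than 1.5-fold higher was found in at least 3 double monosomies for 125 of the 150 genes and 6.47% of the eligible genes, in at least 5 for 31 genes and 0.882%, and in all 6 for 3 genes. The share of the eligible genes is not given for the last count.

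In the double trisomies used in the selection the medians were closer to 0. The median L was -0.39 for 4L+6L, -0.30 for 4L+5L, -0.21 for 5L+6L, -0.10 for 6L+9S, -0.01 for 3L+4L and 0.07 for 3L+5L. In FPKM the median of the 150 genes was 15.8 for double trisomy 4L+6L, against 21.8 for its controls, and 21.0 for double trisomy 3L+5L, against 19.7 for its controls. Against its own controls, in which the 150 genes stood high, the pair 4L+6L had a small difference in the double monosomy. It had the lowest median of these 6 double trisomies against the same controls. Relative to the mean of all 9 groups of controls the median of double trisomy 4L+6L was -0.16, against -0.39 for 4L+5L and -0.36 for 5L+6L, so that it was not the lowest. More than 1.5-fold lower were 53 of the 150 genes for 4L+6L, beside 5.45% of all eligible genes, 37 for 4L+5L, beside 3.64%, and 35 for 5L+6L, beside 6.28%. The same held for 23 genes for 3L+4L, beside 3.66% of the eligible genes, 14 for 3L+5L, beside 2.54%, and 12 for 6L+9S, beside 1.6%. A level more than 1.5-fold lower was found in none of the 6 double trisomies for 45 genes, in at least 3 for 17 genes and in at least 4 for 2 genes. The shares of the eligible genes are not given for these counts. The selection used the values, and nothing is read from them.

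**Figure D2:**
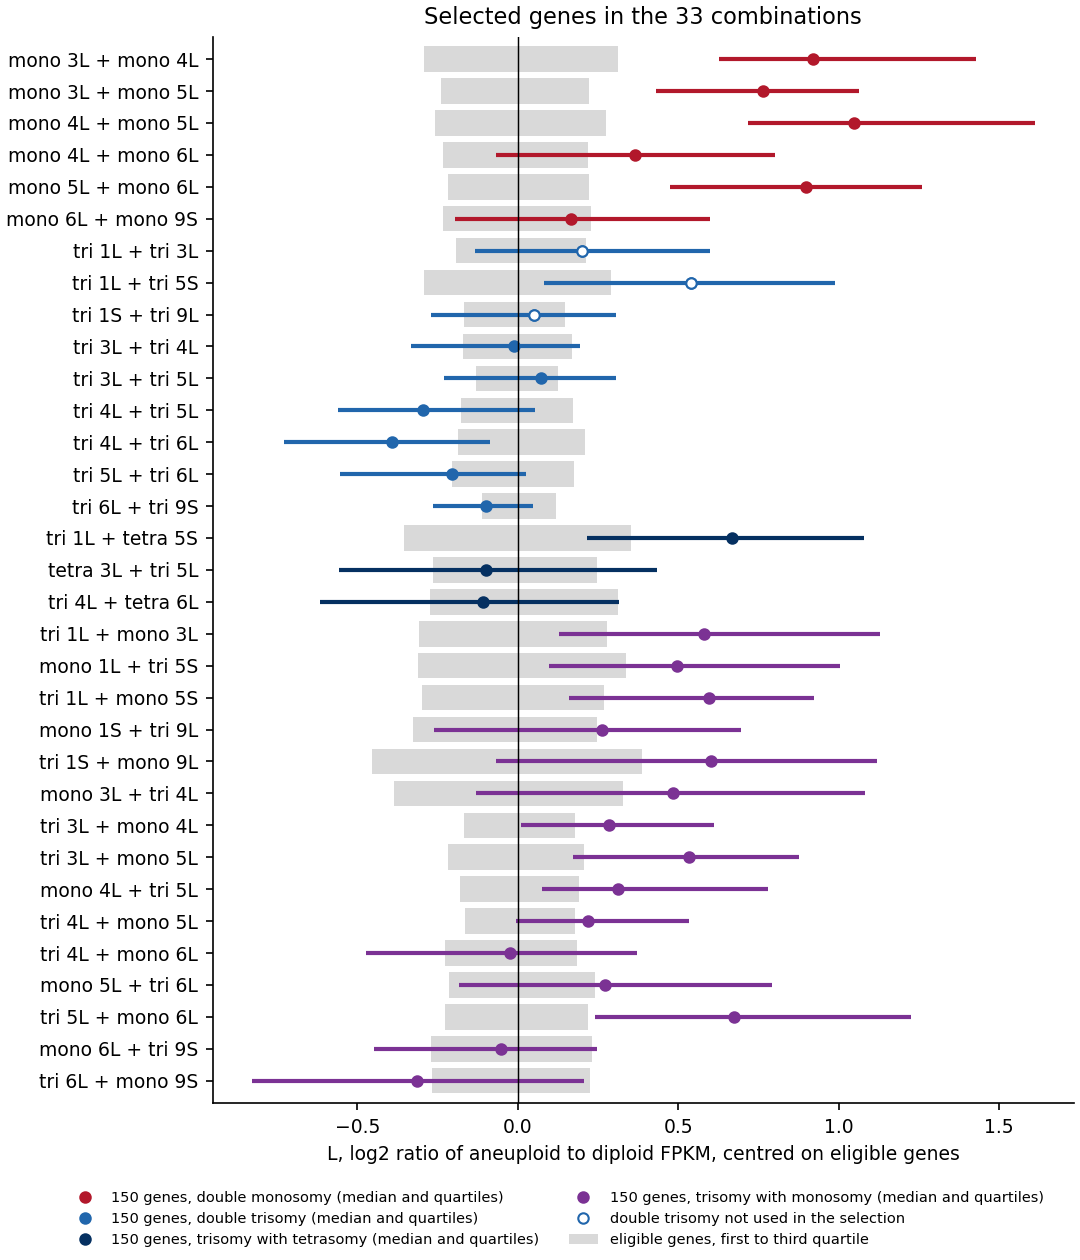
Median (point) and quartiles (line) of L, the centred log2 ratio of aneuploid to diploid FPKM, over the 150 genes in each of the 33 combinations, with the quartiles of the 3741 eligible genes as grey bars. Open points are the 3 double trisomies that were not used in the selection. The medians of the double monosomies run from 0.16 to 1.05, those of the double trisomies used from -0.39 to 0.07 and those of the open points from 0.05 to 0.54.

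The pairs contributed unequally to the choice. The difference between double monosomy and double trisomy was largest in the pair 4L+5L for 57 of the 150 genes, 5L+6L for 29, 3L+4L for 25, 4L+6L for 23, and 3L+5L and 6L+9S for 8 each. It was above 0 in all 6 pairs for 69 genes, in 5 pairs for 68 genes, in 4 pairs for 12 genes and in 3 pairs for 1 gene. Of the eligible genes 5.91% were above 0 in all 6 pairs, 14.7% in 5 pairs, 17.5% in 4 pairs and 20.3% in 3 pairs.

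The same choice was made on 5 pairs and described in the sixth, whose double monosomy and double trisomy were then not part of it. These lists shared 126 to 131 genes with the 150. In the pair left out, the median difference was 1.14 for 4L+5L, 1.00 for 5L+6L, 0.73 for 3L+4L and 0.50 for 3L+5L. It was 0.39 for 4L+6L and 0.08 for 6L+9S, against medians between -0.03 and 0.01 over the eligible genes of the 6 pairs. The difference was thus present in the pairs of 3L, 4L and 5L and in 5L+6L, smaller in 4L+6L, and near that of the eligible genes in 6L+9S. The share of genes with a difference above 0 was 97.3% for 4L+5L, against 48.1% of the eligible genes, 94.0% for 5L+6L, against 49.8%, and 89.3% for 3L+4L, against 50.5%. For 3L+5L it was 85.3%, against 50.7%, for 4L+6L 68.0%, against 47.0%, and for 6L+9S 54.0%, against 51.1%. The pairs share arms, and each arm of 3L+4L, for example, is also varied in another pair of the choice, while 9S is varied in 6L+9S alone.

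The double monosomy and the double trisomy left out are given apart here. The median L of the list in the double monosomy left out was 0.92 for 4L+5L, 0.82 for 5L+6L, 0.82 for 3L+4L, 0.58 for 3L+5L, 0.14 for 4L+6L and -0.07 for 6L+9S. In the double trisomy left out it was -0.22 for 4L+5L, -0.16 for 5L+6L, 0.02 for 3L+4L, 0.13 for 3L+5L, -0.34 for 4L+6L and -0.03 for 6L+9S. The number of genes with L below 0 in that double trisomy was 119 of 150 for 4L+6L, 98 for 5L+6L, 97 for 4L+5L, 93 for 6L+9S, 71 for 3L+4L and 54 for 3L+5L, against 49.99% of the eligible genes in each, which the centring fixes. Against the controls of the pair, the list was thus higher in the double monosomy and not lower in the double trisomy for 3L+4L and 3L+5L.

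**Figure D3:**
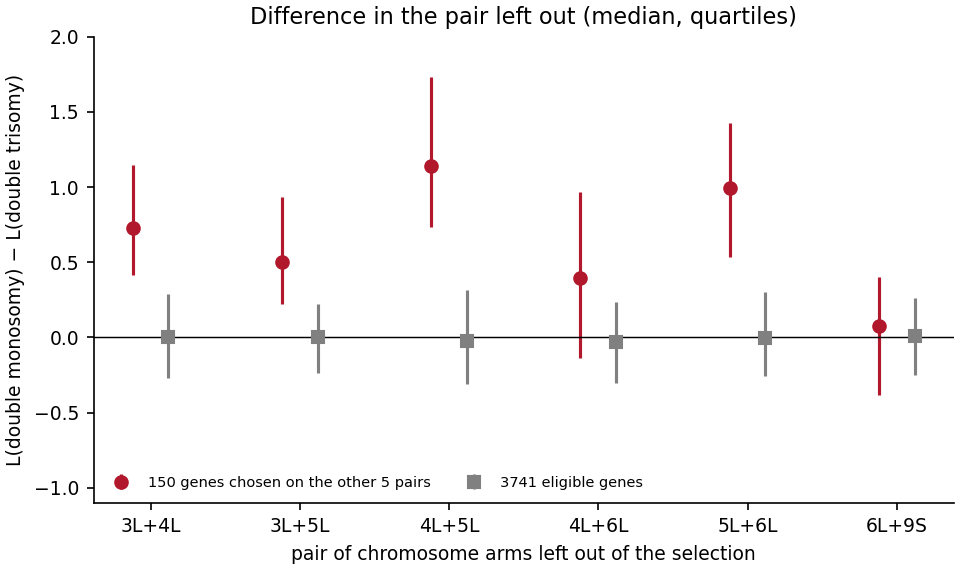
Difference in L between double monosomy and double trisomy (log2 units) in the pair of arms that was left out of the selection, as median and quartiles over the 150 genes chosen on the other 5 pairs and over the 3741 eligible genes. The medians of the 150 genes run from 0.08 in 6L+9S to 1.14 in 4L+5L, and those of the eligible genes lie between -0.03 and 0.01.

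Double trisomies 1S+9L, 1L+5S and 1L+3L had plants and controls that the selection did not use, apart from the range set on the control means, and ask whether the 150 genes were lower in double trisomies of other plants. Of the arms gained in them, 3L was also gained in 2 double trisomies of the selection, and 1L was gained in 1L+5S and 1L+3L. The median L of the 150 genes was 0.20 in double trisomy 1L+3L, 0.54 in 1L+5S and 0.05 in 1S+9L. Without centring the first 2 were 0.10 and 0.38, and that of 1S+9L was -0.03, on the other side of 0. In FPKM the median of the 150 genes was 26.9 in double trisomy 1L+5S, against 20.6 in its controls, and 22.6 in 1L+3L, against 18.4 in its controls. In 1S+9L it was 18.8, against 20.9 in its controls, where the eligible genes had 18.4 FPKM, against 19.8. More than 1.5-fold higher were 69 of the 150 genes in 1L+5S, against 10.1% of all eligible genes, 39 in 1L+3L, against 6.44%, and 14 in 1S+9L, against 1.9%. More than 1.5-fold lower were 4 genes in 1L+5S, against 12.4% of the eligible genes, 13 in 1L+3L, against 4.36%, and 16 in 1S+9L, against 2.83%. Double trisomy 1S+9L had about as many genes higher as lower, both above the share of the eligible genes. In 1L+5S and 1L+3L more genes were higher than lower.

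Averaged over these 3 double trisomies, L had a median of 0.26 over the 150 genes (quartiles 0.07 and 0.45), against -0.01 over the eligible genes (quartiles -0.13 and 0.12). It was above 0 in 125 of the 150 genes (83.3%), against 47.8% of the eligible genes. Without centring the median over the 150 genes was 0.15, with 70.0% above 0. L was above 0 in all 3 for 43 of the 150 genes, against 13.1% of the eligible genes, and below 0 in all 3 for 2 of them, against 11.0%. Of the 130 genes with a T below 0, 105 had a mean above 0 here and 25 a mean below 0. The 38 genes with the lowest T, with a median T of -0.44, had a median of 0.17 here, and 26 of the 38 were above 0. The 38 genes with the highest T, with a median T of 0.01, had a median of 0.33, and 37 were above 0. In these 3 double trisomies the 150 genes were thus not lower on average, as an inverse response would have them. In the double trisomy left out above, the lists had medians below 0 for 4L+6L, 4L+5L, 5L+6L and 6L+9S. For 3L+5L the median was 0.13, and for 3L+4L it was near 0, at 0.02. In double trisomy 3L+4L the 150 genes, whose choice used it, had -0.18 relative to the mean of all 9 groups of controls. Without centring they had -0.12 there, so the sign for 3L+4L is not settled. Apart from 3L+4L, the sign in double trisomies outside the choice differed with the arms, and the 150 genes are referred to below as the selected genes.

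Single genes did not pass a test over these 3 combinations. In limma's moderated test of the mean L against 0, adjusted over the 3741 eligible genes, 0 of the 150 genes had an adjusted p under 0.05, and the lowest adjusted p was 0.958 among the selected genes and 0.773 among all eligible genes. At an unadjusted p under 0.05, 20 of the 150 selected genes were higher, against 2.3% of the eligible genes, and 0 were lower, against 2.14%. The combinations served as replicates, so these p-values measure the spread between 3 combinations and not between plants, and 2 of the 3 combinations share trisomy 1L. Double trisomy 1L+5S carried much of the difference, and without it the median over the selected genes was 0.12.

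The 150 eligible genes at the opposite end, with the lowest M minus T (up to -0.50), had values of the opposite sign in these 3 double trisomies. The mean L had a median of -0.28 over those genes, and 25 of them were above 0. Both ends of the ranking therefore had, in the 3 double trisomies outside the selection, the sign that they had in the double monosomies.

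Of the selected genes, Zm00004b007952 had the highest M (3.33). It lies on chromosome 2 from 104406574 to 104409277 and had 17.4 to 207 FPKM in the 9 groups of controls. Its mean was 2597 FPKM in double monosomy 3L+4L, against 76.1 FPKM in the controls, 2055 FPKM in 3L+5L, against 74.2, and 1365 FPKM in 4L+5L, against 41.4. In the other double monosomies it was 231 FPKM in 4L+6L, against 17.4 in the controls, 153 FPKM in 5L+6L, against 47.6, and 236 FPKM in 6L+9S, against 207. The 3 double monosomies without 6L thus stood apart from those with it. Among the double trisomies it was 512 FPKM in 1L+5S, against 67.2 in the controls, 159 FPKM in 3L+5L, against 74.2, and 9.31 FPKM in 4L+6L, against 17.4. Its 2 lowest values of L in double trisomies were -1.13 in 1S+9L and -0.91 in 4L+6L, and the highest was 3.08 in 1L+5S. High levels were also found where a trisomy met a monosomy, with 1588 FPKM in trisomy 1L+monosomy 5S, against 67.2, and 1547 FPKM in trisomy 1L+monosomy 3L, against 65.5. Over all combinations it was more than 1.5-fold higher in 21 of 33 and more than 1.5-fold lower in 5.

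Zm00004b025325 had the next highest M (2.13). It lies on chromosome 8 from 39779016 to 39780195 and had 6.25 to 57.1 FPKM in the controls. Its mean was 223 FPKM in double monosomy 3L+5L, against 38.7 in the controls, 192 FPKM in 4L+5L, against 17.5, and 70.9 FPKM in 3L+4L, against 13.1. It was 40.0 FPKM in 5L+6L, against 6.25, 47.7 FPKM in 6L+9S, against 11.1, and 26.9 FPKM in 4L+6L, against 21.8. All but the last were more than 1.5-fold higher, and in the 6 double trisomies used in the selection T was 0.02.

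The lowest T was that of Zm00004b034824 (-0.95), on chromosome 7 from 6897251 to 6898817. Its mean was 3.91 FPKM in double trisomy 5L+6L, against 21.1 in the controls, 22.4 FPKM in 4L+6L, against 75.03, and 17.7 FPKM in 3L+5L, against 62.7. Its L was -0.11 for double trisomy 6L+9S, 0.08 for 3L+4L and 0.15 for 4L+5L. The same gene also had the highest mean L (1.62) over the double trisomies that were not used, with 135 FPKM in 1L+5S, against 18.6 in the controls, 110 FPKM in 1L+3L, against 21.5, and 29.0 FPKM in 1S+9L, against 44.8. Against its own controls it was thus far below in 3 double trisomies and far above in 2 others. For the mean over the 3 not used, higher in 2 of 3, the limma adjusted p was 0.958. The control means of Zm00004b034824 ran from 8.96 to 75.03 FPKM over the 9 groups, with a mean of 24.98 FPKM on the log scale. Its values in double trisomies 4L+6L and 3L+5L were set against the highest control means and lay closer to that mean. Its 3.91 FPKM in 5L+6L lay below all control means, and its values in 1L+5S and 1L+3L lay above all of them.

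The next lowest T was that of Zm00004b037847 (-0.77), on chromosome 10 from 3607457 to 3609056. Its mean was 12.2 FPKM in double trisomy 4L+5L, against 37.1 in the controls, 14.0 FPKM in 4L+6L, against 37.2, and 20.2 FPKM in 3L+4L, against 40.1. In the double trisomies not used it was 94.7 FPKM in 1L+5S, against 48.2, 25.9 FPKM in 1L+3L, against 7.56, and 34.4 FPKM in 1S+9L, against 57.1. Both genes with the lowest T were therefore higher than their own controls in 2 of the 3 double trisomies not used. The control means of Zm00004b037847 ran from 7.56 to 87.0 FPKM over the 9 groups, with a mean of 33.4 FPKM on the log scale. Its 25.9 FPKM in 1L+3L was set against the lowest of these controls and lay below that mean.

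Next to Zm00004b034824, the highest mean over the double trisomies not used was that of Zm00004b008217 (1.62), on chromosome 2 from 131701974 to 131702781. It had 1016 FPKM in 1L+5S, against 83.8 in the controls, 50.4 FPKM in 1L+3L, against 22.0, and 16.7 FPKM in 1S+9L, against 19.9. The lowest means were those of Zm00004b038181 (-0.69, chromosome 10, 18348775 to 18354998) and Zm00004b039027 (-0.53, chromosome 10, 89600104 to 89600395). Zm00004b038181 had 4.92 FPKM in 1L+5S, against 41.1, but 45.0 FPKM in 1L+3L, against 31.4, and 22.2 FPKM in 1S+9L, against 21.9. Zm00004b039027 had 41.6 FPKM in 1L+3L, against 97.5, 74.0 FPKM in 1L+5S, against 121, and 70.4 FPKM in 1S+9L, against 70.5. None of these 4 extreme genes, 2 at each end, lay on the same side of its controls in all 3 double trisomies not used when L was taken.

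**Figure D4:**
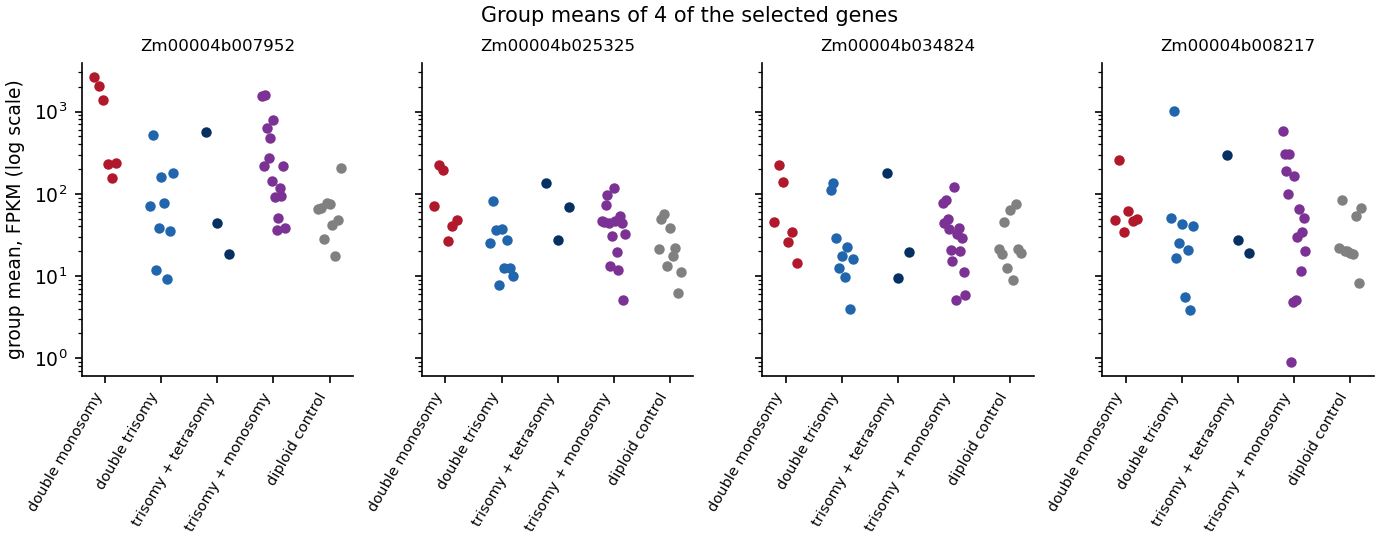
Group means in FPKM (log scale) of 4 of the selected genes, with 1 point per combination in the double monosomies, double trisomies, tetrasomy combinations and trisomies with a monosomy, and 1 point per group of diploid controls. Zm00004b007952 reaches 2597 FPKM in a double monosomy and 512 FPKM in a double trisomy, against at most 207 FPKM in the controls.

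The combinations of a trisomy with a tetrasomy ask what happens at a higher dose of 1 arm, with 1 plant each and no test. The median L of the selected genes was 0.67 in trisomy 1L+tetrasomy 5S, against 0.54 for double trisomy 1L+5S. Tetrasomy 3L+trisomy 5L had -0.10, against 0.07 for its double trisomy, and trisomy 4L+tetrasomy 6L had -0.11, against -0.39 for its double trisomy, or 0.10 and -0.16 relative to the mean of all 9 groups of controls. The additional copy thus went with a higher median for 1L+5S and 4L+6L and with a lower one for 3L+5L. Gene by gene, L was higher with the tetrasomy in 89 of the 150 genes for 1L+5S, against 46.9% of the eligible genes, in 100 for 4L+6L, against 48.5%, and in 63 for 3L+5L, against 48.7%. More than 1.5-fold higher than in the controls were 86 genes in trisomy 1L+tetrasomy 5S, against 14.5% of the eligible genes. More than 1.5-fold lower were 41 in trisomy 4L+tetrasomy 6L, against 11.1%, and 35 in tetrasomy 3L+trisomy 5L, against 10.6%.

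In the 15 combinations that joined a trisomy to a monosomy, which the selection did not use, the median of the selected genes was above 0 in 12. It ran from -0.31 in trisomy 6L+monosomy 9S to 0.67 in trisomy 5L+monosomy 6L, and the other medians below 0 were -0.05 in monosomy 6L+trisomy 9S and -0.03 in trisomy 4L+monosomy 6L. Without the group labelled monosomy 1S+trisomy 9L, 11 of 14 medians were above 0. The sign of the last depended on the reference, as the median of trisomy 4L+monosomy 6L was 0.19 relative to the mean of all 9 groups of controls and 0.08 without centring, and 13 of the 15 medians were then above 0. All 3 combinations below 0 against their own controls had 6L as a varied arm, while the other 2 with 6L, trisomy 5L+monosomy 6L and monosomy 5L+trisomy 6L, had 0.67 and 0.27. The medians with trisomy 1L were 0.58 in trisomy 1L+monosomy 3L and 0.60 in trisomy 1L+monosomy 5S, and that with monosomy 1L was 0.50 in monosomy 1L+trisomy 5S. In FPKM the median was 32.9 in trisomy 1L+monosomy 5S, against 20.6 in the controls, and 16.4 in trisomy 6L+monosomy 9S, against 17.7 in the controls. More than 1.5-fold higher were 81 of the 150 genes in trisomy 5L+monosomy 6L, against 7.91% of the eligible genes, 76 in trisomy 1L+monosomy 5S, against 7.99%, and 75 in trisomy 1S+monosomy 9L, against 15.1%. The count was 74 in trisomy 1L+monosomy 3L, against 9.06%, and 71 in trisomy 3L+monosomy 5L, against 5.21%. More than 1.5-fold lower were 52 genes in trisomy 6L+monosomy 9S, against 10.7%, and 34 in trisomy 4L+monosomy 6L, against 8.71%. A selected gene had L above 0 in a median of 11 of the 15 combinations, against 7 for an eligible gene, and 52 of the 150 genes were above 0 in at least 12 of them, against 10.5% of the eligible genes.

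Of these combinations, 6 pairs were sequenced both ways round, which asks whether the selected genes were higher where the larger arm was lost. By the number of genes in the tables, the larger arm was 1L (3193 genes, against 2081 on 5S), 1S (2495, against 1949 on 9L), 3L (3107, against 2042 on 4L), 4L (2042, against 1988 on 5L), 6L (2493, against 1988 on 5L) and 6L (2493, against 1040 on 9S). The median of the selected genes was 0.67 in trisomy 5L+monosomy 6L, against 0.27 in monosomy 5L+trisomy 6L. It was 0.48 in monosomy 3L+trisomy 4L, against 0.28 in trisomy 3L+monosomy 4L, and 0.31 in monosomy 4L+trisomy 5L, against 0.22 in trisomy 4L+monosomy 5L. It was -0.05 in monosomy 6L+trisomy 9S, against -0.31 in trisomy 6L+monosomy 9S. The arms 4L and 5L were close in size, and by their share of the diploid FPKM 5L was the larger (4.55%, against 4.39% for 4L), which turns the order for that pair. The order was the other way in the pairs with an arm of chromosome 1. There the median was 0.50 in monosomy 1L+trisomy 5S, against 0.60 in trisomy 1L+monosomy 5S, and 0.26 in the group labelled monosomy 1S+trisomy 9L, against 0.60 in trisomy 1S+monosomy 9L.

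Gene by gene, the difference with the larger arm lost minus gained had a median of 0.47 in 5L+6L, 0.25 in 3L+4L, 0.24 in 6L+9S, 0.13 in 4L+5L, -0.04 in 1L+5S and -0.27 in 1S+9L. The mean over the 6 pairs had a median of 0.10 over the selected genes (quartiles -0.14 and 0.33), against 0.01 over the eligible genes (quartiles -0.14 and 0.13). It was above 0 in 90 of the 150 genes (60.0%), against 51.0% of the eligible genes, and in all 6 pairs in 9 of the 150 genes, against 1.79% of the eligible genes. In limma's moderated test adjusted over the eligible genes, 0 selected genes had an adjusted p under 0.05, and the lowest was 0.663. At an unadjusted p under 0.05, 12 of the 150 were higher, against 2.27% of the eligible genes, and 3 were lower, against 2.43%. The pairs served as replicates, so these p-values measure the spread between 6 pairs and not between plants. Some of the pairs share 4L, 5L or 6L and are not independent. Without the pair 5L+6L the median over the selected genes was -0.01, so that its sign rested on that pair.

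**Figure D5:**
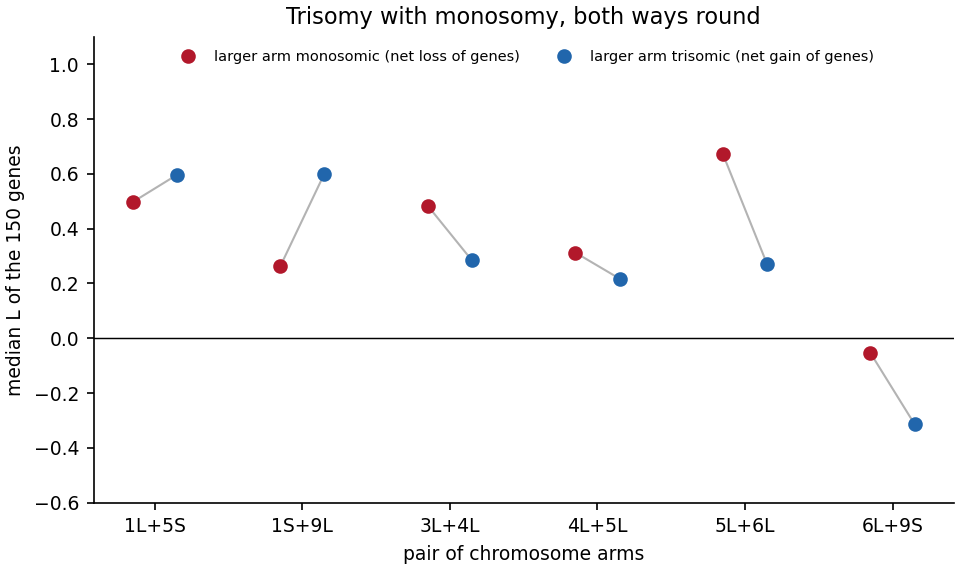
Median L of the 150 selected genes (log2 units) in the 6 pairs of arms sequenced as a trisomy with a monosomy both ways round, with the larger arm monosomic on the left and trisomic on the right of each pair. The median is higher with the larger arm monosomic in 3L+4L, 4L+5L, 5L+6L and 6L+9S and lower in 1L+5S and 1S+9L, and for 4L+5L the order turns where the larger arm is set by diploid FPKM.

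The means of the selected genes also varied more over the 9 groups of diploid controls than those of the eligible genes. The SD of the log2 control mean over the 9 groups of controls had a median of 0.41 over the selected genes (quartiles 0.33 and 0.57), against 0.24 over the eligible genes (quartiles 0.17 and 0.37). The ratio of the highest to the lowest of the 9 control means had a median of 2.52, against 1.69. Of the 374 eligible genes with the highest SD, 50 were selected genes, and 67 were among the 150 genes at the opposite end of the ranking, whose median SD was 0.50. Variation among groups of controls was thus shared by both ends. The median level of the selected genes in the controls, relative to the mean of the 9 groups, ran from -0.13 in the controls of 4L+5L to 0.20 in those of 4L+6L. The controls cancel in a difference between 2 combinations of the same pair, and relative to the mean of all 9 groups of controls the medians were 0.25 to 0.92 in the double monosomies, -0.39 to 0.06 in the double trisomies used and 0.06 to 0.60 in those not used.

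Among the 4 chromosomes, 47 of the selected genes lay on chromosome 2 (3.78% of its eligible genes), 39 on chromosome 7 (4.77%), 31 on chromosome 8 (3.13%) and 33 on chromosome 10 (4.79%). Their level in the controls was ordinary, with a median of 19.8 FPKM, against 18.5 FPKM over the eligible genes. Their loci were shorter, with a median of 2739 bp (quartiles 1541 and 4809), against 4859 bp (quartiles 2858 and 7947), and the opposite end of the ranking had short loci as well, with a median of 2805 bp. The distance to the nearer chromosome end had a median of 15.4% of the chromosome, against 14.8% over the eligible genes.

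The selected genes were spread over 59 of the 78 windows of 10 Mb that held an eligible gene, and 7 windows held 5 or more. The windows with the most, chosen after their counts were seen, were 80 to 90 Mb on chromosome 10 (9 of 49 eligible genes, and 1 of the opposite end), 0 to 10 Mb on chromosome 7 (8 of 66) and 170 to 180 Mb on chromosome 8 (8 of 130). The window from 100 to 110 Mb on chromosome 2 held 5 selected genes among 20 eligible genes, Zm00004b007952 among them, and also 4 genes of the opposite end. Of the selected genes, 21 lay under 100 kb from another selected gene. Among the eligible genes in order, 33 selected genes had a direct neighbour that was also selected. At the opposite end of the ranking, 31 genes had a direct neighbour in their own list, so the 2 ends were alike in this.

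The window on chromosome 10 held a row of 5 short loci between 89478308 and 89640550, of 250 to 292 bp each, and Zm00004b039027 is one of them. Their M ran from 0.34 to 1.34, their T from -0.58 to -0.38 and their mean L in the double trisomies not used from -0.53 to 0.29. Loci under 300 bp made up 6 of the 150 selected genes and 0.722% of the eligible genes. Neighbouring loci of like length may be copies of each other between which reads cannot be divided with certainty. These 5 are among the 150 genes in every count and median above, and their separate values are uncertain.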

How the data were processed

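Leaf RNA from W22 maize was sequenced after rRNA depletion. The authors trimmed the reads with fastp, used STAR to align them to W22 and B chromosome sequence, and ran Cuffdiff on each combination and its own controls, and the versions are not given in the sources used here. The deposited tables hold 1 group mean in FPKM for the controls and 1 for the combination per gene, with the authors' log2 fold changes, test statistics, p-values and q-values, which were not used. A line without an identifier was left out. The library scaling of the FPKM is not stated, and depth is unknown, so no counting error was computed.

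The members and lists were chosen with earlier results of these data known. Groups were taken from the sample titles. L was centred on the median of the eligible genes, which took off between -0.21 and 0.19. The boundary of each arm was the point of change of L along the chromosome in double trisomies, among genes of at least 5 FPKM in all controls and with at least 20 genes on each side. The mean of L over the 3 double trisomies not used, and the mean difference between mirror combinations over 6 pairs, were tested with limma (version 3.58.1, R 4.3.3) against 0, with Benjamini-Hochberg adjustment over the 3741 eligible genes. All other values are descriptions. A threshold of 1.5-fold was used for counts in single combinations. Genes were named by rule, as the 2 with the highest M, the 2 with the lowest T, those on both sides of the threshold, and the 2 lowest and 2 highest over the double trisomies not used. The steps were tested on simulated data. Python 3.11.15, numpy 2.4.6, matplotlib 3.10.9 and pandas 2.3.3 served for the rest.

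The alternatives were pseudocounts of 0.1 and 1 FPKM, control means of at least 1 FPKM without an upper limit or of 10 to 300 FPKM, no centring, 75 or 300 genes, ranking by the median difference, leaving out each pair or combination, and the larger arm by summed diploid FPKM. Levels relative to the mean of the 9 groups of controls, and leaving out genes under 100 kb from another selected gene, were added after the data were examined.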

Additional observations from a re-analysis of the deposited data

Results flagged for a closer look

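Of 20 groups checked (the median of the selected genes and the 9 named genes, each over the 6 double monosomies and the 9 double trisomies), 1 held a value far from the others. Zm00004b040306, the last gene inside the threshold, had an L of 0.94 in double trisomy 1L+5S, with 13.1 FPKM against 7.42 FPKM in the controls. Its L in the other 8 double trisomies lay between -0.30 and 0.22. The limit of the check (Dixon's) is set to flag about 1 of 20 groups of independent, normally distributed values. Combinations that share arms are not independent, and the rate of such values here was not measured.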

How the results depend on the processing

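No paired analysis was possible because the tables hold group means and no values of single plants. Of 250 recomputed values, 245 moved by less than the spread over combinations or pairs, or by less than 1.5 times for a share or count. The 245 include all counts of genes with an adjusted p under 0.05, which were 0 throughout and had little room to move. They also include medians that changed sign within the spread. With control means of at least 1 FPKM and no upper limit (5933 eligible genes, 55 of the 150 genes shared), the median M was 1.09 and the difference in the pair left out was 0.90 for 3L+5L, 1.64 for 4L+5L and 1.44 for 5L+6L. With 75 genes it was 1.69 for 4L+5L. The difference for 6L+9S ran from -0.12 to 0.38 over the alternatives, so that its sign is not settled. The median over the double trisomies not used ran from 0.12 (without 1L+5S) to 0.38 (without 1S+9L), and 64.0% to 86.7% of the genes were above 0. It was 0.15 without centring. The median difference between mirror combinations ran from -0.02 to 0.15 and was below 0 with control means of at least 1 FPKM (-0.02), without the pair 5L+6L (-0.01) and with the pair 4L+6L left out of the selection (-0.00). No selected gene had an adjusted p under 0.05 in limma's test under any alternative. Group means without plant values or counts limit all of these results, since neither the spread between plants nor the counting error enters them.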
